A study of Mus musculus with 15 samples.

Results

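The adherens junction genes described here are 10 genes, chosen by their symbols among the 45905 genes of each of the deposited read tables, one for gut organoids and one for gut tissue. They are 4 cadherins (Cdh1, Cdh2, Cdh3 and Cdh17), the 4 nectins (Nectin1 to Nectin4) and 2 linkers to the actin cytoskeleton, Afdn (afadin) and Vcl (vinculin). All 10 passed the filter on low counts in every fit. Cdh2 passed it in the organoids through the libraries in which it was higher, so its call there is no independent support of a difference.

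Bulk polyA RNA was sequenced from 9 mouse gut organoid libraries and 6 mouse gut tissue libraries, in 5 groups of 3. The study examined Jup, the gene of plakoglobin (gamma-catenin), under conditional deletion with a tamoxifen-inducible Cre driven by the villin promoter, which is active in intestinal epithelium. The organoid groups were labelled Tamoxifen (code T41, titled as carrying both the inducible villin Cre, iVilCre ERT2, and floxed Jup, JUPfl/fl), DMSO (code T75, titled JUPfl/fl with no Cre named) and nativ (also code T75 and JUPfl/fl, with no agent named). Each organoid group carried a single code, and nothing says that its 3 libraries came from separate cultures, so p-values measure only the spread between these libraries. Code, Cre and agent all differ between the Tamoxifen group and the other organoid groups and cannot be told apart. The tissue groups were described as ctr (T50, T51 and T52) and PG_KO (T47, T48 and T56). Their titles go against those descriptions, with the inducible Cre and floxed Jup on the libraries described as ctr, and DSS colitis (dextran sodium sulfate, a chemical that injures the colon) with floxed Jup on those described as PG_KO. Both labels give the same division into 3 and 3, and the descriptions are used as group names. The ages of the animals and the gut segment were not given in the sources used here.

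Adherens junctions tie neighbouring epithelial cells together just below the tight junctions. Classical cadherins bind the same cadherin on the next cell in a calcium-dependent manner, and their tails hold beta-catenin or plakoglobin, which pass the load through alpha-catenin to actin. Nectins are immunoglobulin-like adhesion molecules that bind each other across the gap, often in unlike pairs, and afadin anchors their tails to actin. E-cadherin (Cdh1) and the liver-intestine cadherin (Cdh17), whose short tail does not bind catenins, are among the known cadherins of intestinal epithelium.

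Library totals were 25185053 to 30744563 reads in the organoids and 23194385 to 29257641 in the tissue, so that 3 reads corresponded to 0.0976 to 0.129 CPM, the reads of a gene scaled to a common library total (counts-per-million). Jup, the targeted gene, stood at 69.0, 70.9 and 71.2 CPM in the Tamoxifen libraries, at 360, 378 and 414 in the DMSO libraries and at 386, 275 and 395 in the nativ libraries. In the tissue, Jup was at 302, 375 and 495 CPM in ctr and at 75.2, 82.8 and 80.3 in PG_KO, so it was low in the libraries described as PG_KO. Several libraries stood apart. The Tamoxifen libraries differed from each other far less than those of other groups, with a chi-square per degree of freedom of 2.13 to 3.52 between them against 7.54 to 97.6 within the other organoid groups. Replicate 2 of nativ was the lowest of its group for 9 of the 10 junction genes, at 0.464 times the mean of the other nativ libraries for Cdh3 and 0.523 times for Afdn, against a median of 0.861 times over all genes tested. Replicate 1 of ctr had the highest summed smooth muscle markers (4263 CPM) and the lowest summed epithelial markers (9301 CPM) of the tissue libraries. In bulk samples, fewer cells of a type and less RNA per cell cannot be told apart.

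Epithelial identity was checked with 9 marker genes. Their summed level was 11935 to 12154 CPM in Tamoxifen organoids, 5920 to 7807 in DMSO and 8345 to 8840 in nativ. The list was uneven in the organoids of code T75. Cdx1 had 1 read over the 3 DMSO libraries and 12 over the nativ libraries, against 103 CPM in the Tamoxifen organoids, and Krt20 was at 1.38 and 2.04 CPM against 437. Epcam (482 and 520 CPM against 1654), Vil1 (223 and 207 against 1255) and Lgals4 (203 and 326 against 2263) were lower in DMSO and nativ than in Tamoxifen but well detected. Krt18 was the other way round, at 2586 and 3153 CPM against 880, and Krt19 was close in all 3 groups. Summed fibroblast markers were at most 1.5 CPM and smooth muscle markers at most 1.62 CPM in any organoid library, with some of their markers at 0 in most libraries. The leukocyte list summed to 34.5 to 103 CPM, of which Cd68 gave 82.9 CPM in DMSO and 92.7 in nativ and Lyz2 17.3 in Tamoxifen, while Ptprc, its defining marker, had at most 1 read. The endothelial list summed to 12.7 to 30.2 CPM, mostly Egfl7, with Emcn and Cldn5 at 0 in every organoid library.

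Promoter sequences, taken from RefSeq (GRCm38.p6) as 250 bases before to 50 after a start site, matched 5 of the 10 genes: Nectin2, Nectin3, Nectin4, Afdn and Vcl. Nectin3 and Nectin4 are shown because they were the nectins that differed most, in opposite directions, between the organoid groups, and Vcl because it holds a CArG box, the element bound by serum response factor. Capitals mark CpG dinucleotides in the nectins and the CArG box in Vcl.
Nectin3 (chr16:46496918-46497217, minus strand): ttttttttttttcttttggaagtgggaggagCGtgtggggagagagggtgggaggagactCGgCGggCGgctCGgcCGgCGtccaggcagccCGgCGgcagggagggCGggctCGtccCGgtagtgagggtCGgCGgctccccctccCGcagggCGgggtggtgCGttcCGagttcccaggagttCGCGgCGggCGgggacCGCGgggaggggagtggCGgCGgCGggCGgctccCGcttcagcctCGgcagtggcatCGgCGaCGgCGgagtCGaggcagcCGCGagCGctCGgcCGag
Nectin4 (chr1:171369923-171370222, plus strand): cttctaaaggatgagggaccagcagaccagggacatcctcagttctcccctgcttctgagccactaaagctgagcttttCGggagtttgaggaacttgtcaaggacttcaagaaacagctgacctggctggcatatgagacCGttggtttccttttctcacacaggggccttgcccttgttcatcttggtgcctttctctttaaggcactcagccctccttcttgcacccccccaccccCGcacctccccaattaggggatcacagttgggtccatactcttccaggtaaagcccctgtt
Vcl (chr14:20929148-20929447, plus strand): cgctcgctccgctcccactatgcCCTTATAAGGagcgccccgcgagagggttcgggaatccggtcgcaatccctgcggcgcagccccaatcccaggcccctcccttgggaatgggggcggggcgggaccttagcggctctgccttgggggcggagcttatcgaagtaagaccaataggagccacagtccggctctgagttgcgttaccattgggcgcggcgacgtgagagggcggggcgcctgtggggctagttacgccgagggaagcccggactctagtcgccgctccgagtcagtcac

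The Nectin3 window, which lies inside the annotated gene span, holds 40 CpG dinucleotides and is 73.7% G or C. Only 3 CpG dinucleotides lie in the Nectin4 window, which is 53.3% G or C. The medians over 32851 promoters of the same length were 7 CpG dinucleotides and 52.7%, and 96.1% of them held fewer CpG dinucleotides than Nectin3 and 23.3% fewer than Nectin4. Nectin2, Vcl and Afdn held 20, 30 and 62. The GC box GGGCGG, searched on both strands with overlapping matches counted separately, was found 5 times in Nectin3, 4 times each in Vcl and Afdn, 3 times in Nectin2 and not in Nectin4, and 35.7% of all promoters held it. The E-box CACCTG, a motif bound by repressors of the Snail and Zeb families, occurred once, in Nectin2, and in 20.2% of all promoters. Among these 5 windows the CArG box was found in Vcl, starting at position 24 from the 5′ end, and 1.63% of all promoters held it. A match describes letters in a window and is not evidence of binding.

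On GRCm38.p6, all 10 are protein-coding genes. Cdh1 (GeneID 12550, chr8:106603350-106670247) and Cdh3 (GeneID 12560, chr8:106510852-106556911) lie on the same strand with 46.4 kb between them. Cdh17 (GeneID 12557) lies at chr4:11758157-11817905, and Cdh2 (GeneID 12558) is on chromosome 18. The nectins lie apart, Nectin1 (GeneID 58235) at chr9:43737075-43807461, Nectin2 (GeneID 19294) at chr7:19716644-19749573, Nectin3 (GeneID 58998) at chr16:46387665-46498535 and Nectin4 (GeneID 71740) at chr1:171370173-171388287. Afdn (GeneID 17356) spans chr17:13760391-13905798 and Vcl (GeneID 22330) chr14:20929383-21033676. The 3′ end of Vcl overlaps Ap3m1, on the opposite strand, by 571 bases, and the strand setting of the counting was not given in the sources used here, so reads there cannot be assigned to one gene with certainty. Overlapping genes of Nectin1, Nectin2 and Afdn held at most 5.08% as many reads as the member in any library.

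The Tamoxifen organoids differed from both groups of T75 organoids in most of these genes. Against DMSO, 4 rose (Cdh1, Cdh17, Nectin1 and Nectin3) and 4 fell (Cdh2, Cdh3, Nectin4 and Vcl), by edgeR's quasi-likelihood test at a Benjamini-Hochberg adjusted p under 0.05. That is 8 of 10, where 66.3% of the 16449 genes tested were called, 33.9% higher and 32.4% lower, so the count itself is near the background. The median log2 change of the 10 genes was -0.26, against 0.02 over all genes tested. Against nativ the same 8 genes were called in the same directions, where 66.9% of all genes tested were called, 33.5% higher and 33.5% lower. The comparisons with DMSO and with nativ share the Tamoxifen libraries. In 9 of the 10 genes the Tamoxifen and DMSO libraries did not overlap in CPM, 4 above and 5 below, which held for 76.2% of all genes tested (41.8% above and 34.4% below). Against nativ it was 7 of 10, 4 above and 3 below, beside 74.7% of all genes tested (43.0% above and 31.6% below).

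**Figure D1:**
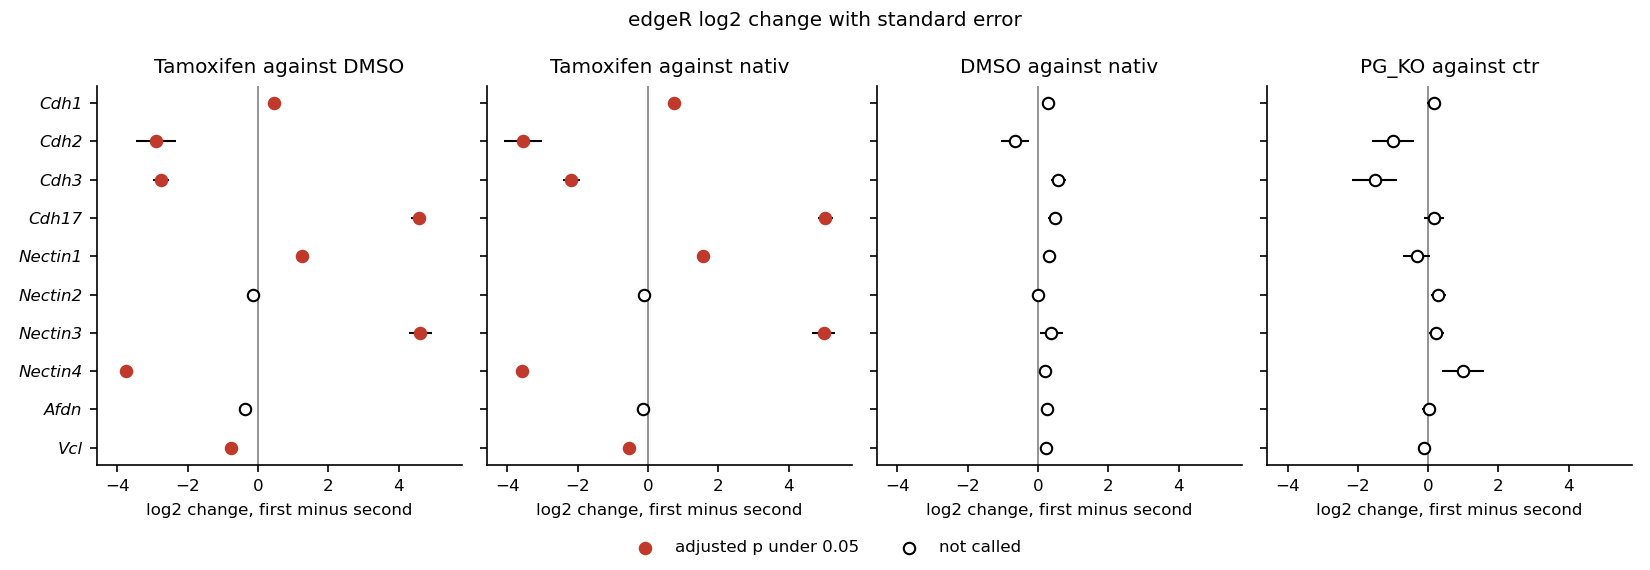
Log2 change of each gene with its standard error (horizontal axis, edgeR, first group minus second) for 4 comparisons, each of 3 libraries against 3. Red points passed an adjusted p of 0.05 and open points did not. The Tamoxifen comparisons spread from -3.76 to 5.04, while no point passed in DMSO against nativ or in PG_KO against ctr.

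Among the cadherins, the makeup changed more than E-cadherin did. Cdh17 stood at 1716, 1728 and 1696 CPM in the Tamoxifen libraries, at 85.0, 50.7 and 71.5 in DMSO and at 56.7, 33.7 and 54.7 in nativ. Every Tamoxifen library was thus far above every T75 library, and the ctr and PG_KO tissue libraries lay between, at 536, 763 and 894 and at 995, 715 and 728 CPM. Cdh17 rose 23.8-fold against DMSO (log2 change 4.57 ± 0.21, SE; edgeR adjusted p = 1.46e-08) and 33.0-fold against nativ (5.04 ± 0.21, edgeR adjusted p = 8.49e-09).

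E-cadherin RNA was abundant in every library. Cdh1 was at 1251, 1318 and 1274 CPM in Tamoxifen, at 910, 777 and 991 in DMSO and at 757, 524 and 847 in nativ. The Tamoxifen libraries were the highest of the organoids, and by much smaller steps than for Cdh17. Cdh1 rose 1.37-fold against DMSO (log2 change 0.46 ± 0.14, edgeR adjusted p = 0.0158) and 1.68-fold against nativ (0.75 ± 0.14, edgeR adjusted p = 8.68e-04). The call against DMSO was lost without Tamoxifen replicate 2 (0.43, edgeR adjusted p = 0.0571) and without DMSO replicate 2 (0.39, edgeR adjusted p = 0.0601).

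P-cadherin (Cdh3), known from basal layers of stratified epithelia and from placenta, moved the other way. It was at 3.11, 2.90 and 2.75 CPM in Tamoxifen, at 19.3, 16.3 and 20.9 in DMSO and at 14.6, 7.0 and 15.6 in nativ. Cdh3 fell by 2.75 on the log2 scale against DMSO (SE 0.23, edgeR adjusted p = 1.72e-06) and by 2.18 against nativ (SE 0.23, edgeR adjusted p = 1.11e-05). Summed markers of squamous epithelium, 6 genes of which Sprr1a gave nearly all reads, were 98.1 to 106 CPM in Tamoxifen, 474 to 655 in DMSO and 623 to 740 in nativ. Trp63, the defining basal cell factor of that list, had 0 reads in the Tamoxifen and DMSO libraries and 2 reads over the nativ libraries. Krt5 was at 0.763 CPM in Tamoxifen, 0.890 in DMSO and 0.510 in nativ. Whether squamous cells were present, and any part of theirs in the Cdh3 difference, was not tested.

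N-cadherin (Cdh2), the cadherin of neural and mesenchymal cells, was near the detection limit in every organoid library. It had 7.5 reads over the 3 Tamoxifen libraries, 57.5 over DMSO and 91.5 over nativ. In CPM that is 0.0334, 0.0325 and 0.197 in Tamoxifen, 0.947, 0.556 and 0.508 in DMSO, and 1.29, 0.762 and 1.04 in nativ. The groups did not overlap, and the log2 changes were -2.91 ± 0.57 against DMSO (edgeR adjusted p = 0.00107) and -3.56 ± 0.54 against nativ (edgeR adjusted p = 1.74e-04). Without Tamoxifen replicate 3, which held 5.5 of the 7.5 reads, they were -4.26 and -4.92. Summed markers of enteric neurons and glia were 0.465 to 0.635 CPM in Tamoxifen and 2.18 to 3.03 in the T75 organoids, with 1 to 4 of the 6 markers at 0 in each library, and their part in the Cdh2 difference was not tested.

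**Figure D2:**
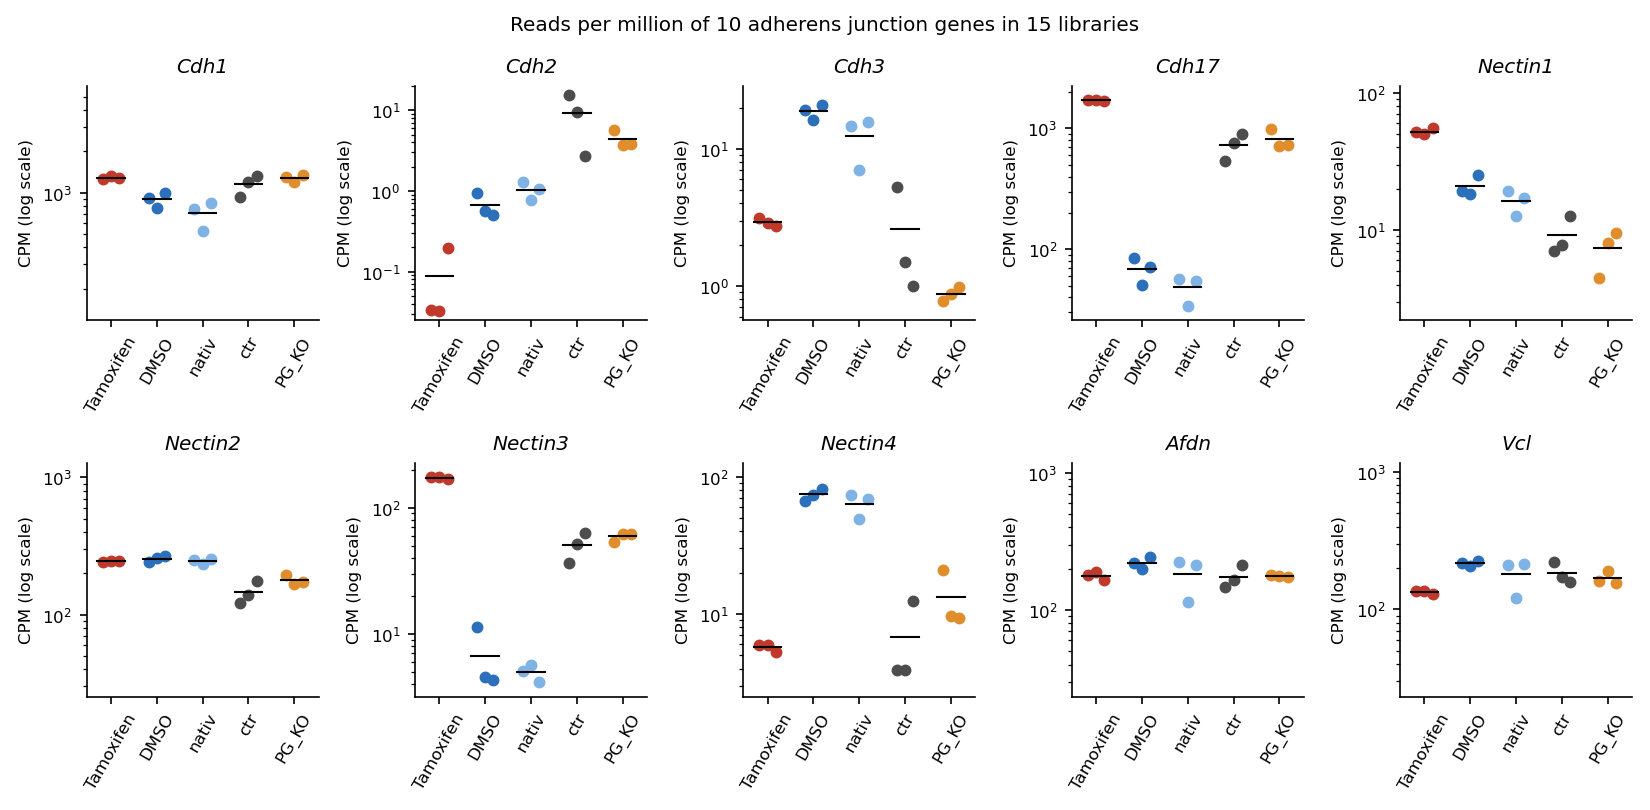
CPM (logarithmic axes with their own span per gene) of the 10 genes in each of the 15 libraries, with the group mean as a bar. Cdh17 and Nectin3 share an order, high in Tamoxifen, middle in the tissue and low in DMSO and nativ, while Nectin4 and Cdh3 were highest in DMSO and nativ.

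The nectins changed in opposite directions. Against DMSO, Nectin3 rose about as much as Cdh17 did, and Nectin4 fell. Nectin3, which pairs with Nectin1 and Nectin2 on the facing cell, stood at 175, 175 and 167 CPM in Tamoxifen, at 11.3, 4.57 and 4.33 in DMSO and at 5.04, 5.68 and 4.14 in nativ. Replicate 1 of DMSO was the highest of the T75 libraries, and all 6 stayed far below every Tamoxifen library. Nectin3 rose 24.5-fold against DMSO (log2 change 4.61 ± 0.33, edgeR adjusted p = 4.44e-07) and 31.8-fold against nativ (4.99 ± 0.33, edgeR adjusted p = 2.93e-07).

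Nectin4, a nectin of skin and of other stratified and glandular epithelia that binds Nectin1, was the reverse. Its levels were 5.98, 5.98 and 5.29 CPM in Tamoxifen, 66.8, 74.1 and 81.8 in DMSO and 73.1, 49.2 and 68.6 in nativ, with a wide gap between the groups. Nectin4 fell by 3.76 on the log2 scale against DMSO (SE 0.13, edgeR adjusted p = 2.27e-09), a 13.5-fold lower level, and by 3.57 against nativ (SE 0.13, edgeR adjusted p = 3.19e-09). The squamous marker sums given for Cdh3, nearly all Sprr1a, move with Nectin4 in the same way, and their part was not tested.

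Nectin1, the partner that both Nectin3 and Nectin4 bind, was at 51.5, 49.7 and 55.3 CPM in Tamoxifen, 19.4, 18.4 and 25.1 in DMSO and 19.1, 12.6 and 17.1 in nativ. The groups did not overlap, and Nectin1 rose 2.38-fold against DMSO (log2 change 1.25 ± 0.13, edgeR adjusted p = 1.24e-05) and 2.97-fold against nativ (1.57 ± 0.14, edgeR adjusted p = 2.27e-06). Nectin2, the broadly expressed nectin, was close in all organoid libraries, at 240 to 246 CPM in Tamoxifen, 241 to 266 in DMSO and 232 to 254 in nativ. Its log2 change against DMSO was -0.13, with a 95% interval of -0.31 to 0.04 (edgeR adjusted p = 0.198), and against nativ -0.13, with an interval of -0.30 to 0.05 (edgeR adjusted p = 0.224).

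Per length (RPKM, which is CPM divided by kilobases of combined exons), Cdh17 led the 10 genes in Tamoxifen organoids at 480 ± 4.46 (SD, n = 3), followed by Cdh1 at 289 ± 7.60. In DMSO organoids Cdh1 led at 201 ± 24.3 RPKM, followed by Nectin2 at 74.1 ± 3.78, and Cdh17 was sixth at 19.3 ± 4.84. Cdh17 made up 62.4% ± 0.534 (SD, n = 3) of the summed RPKM of the 4 cadherins in Tamoxifen, 8.52% ± 1.48 in DMSO, 7.64% ± 0.606 in nativ, 43.6% ± 2.07 in ctr and 43.8% ± 4.49 in PG_KO. The cadherin sum was 770 ± 10.6 RPKM in Tamoxifen against 226 ± 28.5 in DMSO and 177 ± 42.1 in nativ. The nectin sums lay closer together, at 90.8 ± 0.877 RPKM in Tamoxifen, 98.7 ± 6.05 in DMSO and 92.0 ± 7.31 in nativ. Nectin2 was the main nectin everywhere, with 75.1% to 87.1% of the nectin sum by group mean. Behind it, Nectin4 was next in the T75 organoids, with 21.4% ± 0.863 in DMSO and 19.6% ± 2.51 in nativ against 1.81% ± 0.138 in Tamoxifen. Nectin3 was next in Tamoxifen, with 12% ± 0.414, against 0.440% ± 0.285 in DMSO and 0.343% ± 0.0795 in nativ.

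**Figure D3:**
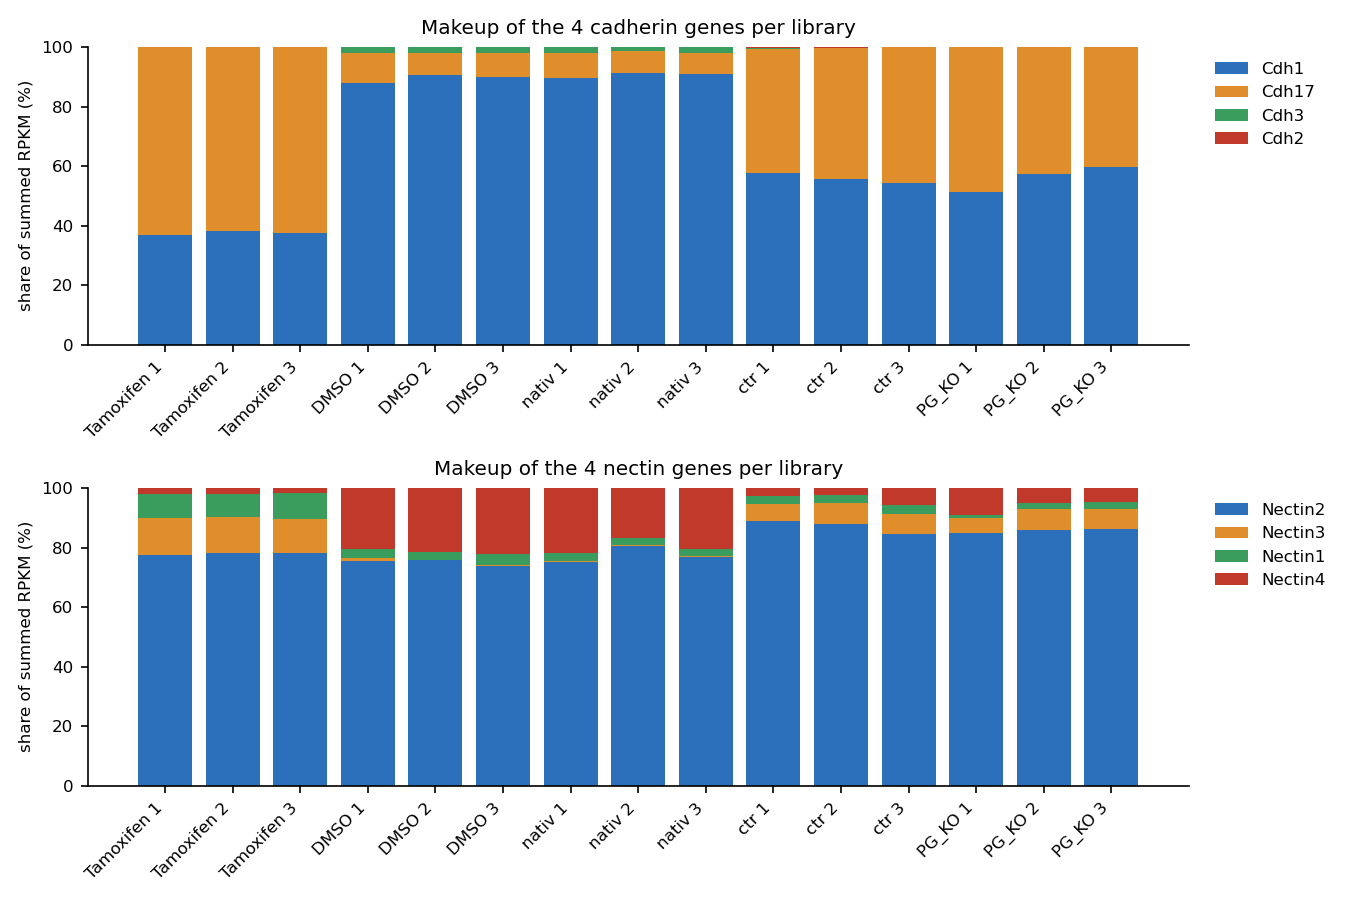
Share of each gene in the summed RPKM of the 4 cadherins (upper panel) and the 4 nectins (lower panel), in percent, 1 bar for each of the 15 libraries. Cdh17 takes most of the cadherin bar in Tamoxifen and at most 10.2% in each DMSO and nativ library, and the second nectin after Nectin2 is Nectin3 in Tamoxifen and Nectin4 in DMSO and nativ.

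Of the linkers, Vcl fell in the Tamoxifen organoids and Afdn did not pass the test. Vinculin (Vcl), which is recruited to alpha-catenin under tension, was at 135, 135 and 130 CPM in Tamoxifen, 217, 205 and 226 in DMSO and 211, 120 and 215 in nativ. Tamoxifen lay below all DMSO libraries, while nativ replicate 2 lay below Tamoxifen. Vcl fell by 0.76 on the log2 scale against DMSO (SE 0.15, edgeR adjusted p = 9.08e-04) and by 0.55 against nativ (SE 0.15, edgeR adjusted p = 0.00669), and the second call was lost with library totals as scaling (-0.45, edgeR adjusted p = 0.0538). Ap3m1, which overlaps the Vcl 3′ end, held up to 87.2% as many reads as Vcl in a library and moved the other way, with a log2 change of 0.70 ± 0.12 against DMSO (edgeR adjusted p = 3.48e-04).

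Afadin (Afdn), which joins nectins to actin, was at 180, 188 and 165 CPM in Tamoxifen, 221, 198 and 245 in DMSO and 222, 114 and 212 in nativ. Its log2 change against DMSO was -0.38 ± 0.17 (edgeR adjusted p = 0.0706), although the groups did not overlap. A fit of the 6 compared libraries alone gave -0.40 (edgeR adjusted p = 0.00206). Against nativ the change was -0.13 ± 0.17 (edgeR adjusted p = 0.505), and without nativ replicate 2 it was -0.35 (edgeR adjusted p = 0.00353).

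DMSO and nativ organoids, which share code T75 and genotype, differed in none of the 10 genes by edgeR's quasi-likelihood test (0 of 10 called, with 0% of the 16449 genes tested called and 2408 at an unadjusted p under 0.05). DESeq2 called 157 of all genes and 0 of these 10. Fitted changes were above 0 for 9 of the 10 genes, with a median of 0.27 on the log2 scale against -0.01 over all genes tested, and nativ replicate 2 was the lowest nativ library in 9. Cdh3 had a log2 change of 0.57 ± 0.21 (edgeR adjusted p = 0.298) and was the only one whose groups did not overlap, with DMSO above, as was the case for 14.1% of all genes tested (7.08% with DMSO above). Cdh17 followed at 0.47 ± 0.18, and the sole change below 0 was that of Cdh2, at -0.66 ± 0.40.

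In gut tissue, none of the 10 genes differed between PG_KO and ctr by the same test (0 of 10, with 0% of the 18043 genes tested called and 2705 at an unadjusted p under 0.05), and DESeq2 called 0 of the 10. Jup itself had a log2 change of -2.29 ± 0.23 and an edgeR adjusted p of 0.163, so this comparison did not call even the targeted gene. Without ctr replicate 3, 1478 genes were called, and 0 of these 10. Cdh1 was at 930, 1201 and 1328 CPM in ctr and 1296, 1200 and 1350 in PG_KO, with overlapping groups. Its log2 change was 0.16, with a 95% interval of -0.24 to 0.57 (edgeR adjusted p = 0.682). Cdh17, at the levels given with the organoids, changed by 0.16 with an interval of -0.38 to 0.71 (edgeR adjusted p = 0.759). Without replicate 1 of either group the Cdh17 change was -0.04, so its direction in tissue is not fixed.

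Nectin3 was at 36.7, 51.5 and 63.1 CPM in ctr and 53.8, 62.0 and 62.3 in PG_KO, a log2 change of 0.24 ± 0.22 (edgeR adjusted p = 0.578). Nectin4 was at 3.90, 3.88 and 12.5 CPM in ctr and 20.9, 9.66 and 9.42 in PG_KO. One library in each group stood well above the others, the groups overlapped, and the log2 change was 1.00 ± 0.60 (edgeR adjusted p = 0.417), ranging from 0.47 without PG_KO replicate 1 to 1.87 without ctr replicate 3. Beside it, the squamous marker sums were 37.3, 32.8 and 77.3 CPM in ctr and 171, 109 and 80.6 in PG_KO, with Trp63 at 0 in ctr replicate 1, and their part was not tested. Nectin2 was at 122, 138 and 177 against 193, 166 and 172 CPM (0.29 ± 0.20, edgeR adjusted p = 0.466), and Nectin1 was at 7.05, 7.72 and 12.7 against 4.47, 8.04 and 9.54 CPM (-0.33 ± 0.38, edgeR adjusted p = 0.647). Afdn and Vcl lay between 148 and 222 CPM in all 6 tissue libraries, with log2 changes of 0.03 ± 0.19 and -0.11 ± 0.16.

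Of the 4 genes whose tissue change was below 0 (Cdh2, Cdh3, Nectin1 and Vcl), Cdh2 and Cdh3 had the larger values. Cdh2 was at 15.4, 9.46 and 2.68 CPM in ctr and 5.76, 3.72 and 3.85 in PG_KO (log2 change -1.0 ± 0.59, edgeR adjusted p = 0.408). Beside it, the summed markers of enteric neurons and glia (6 of 6 detected in each library) were 150, 75.7 and 26.2 CPM in ctr and 48.0, 33.7 and 42.2 in PG_KO. Smooth muscle sums were 4263, 3385 and 657 CPM in ctr and 598, 879 and 1151 in PG_KO. Cdh2 was thus highest in the ctr library with the most stromal and neural RNA and lowest in the one with the least neural RNA, and the part of those cells was not tested. Cdh3 was at 5.26, 1.51 and 0.994 CPM in ctr and 0.775, 0.871 and 0.991 in PG_KO, with a log2 change of -1.52 ± 0.64 (edgeR adjusted p = 0.333). It was the only one of the 10 whose tissue groups did not overlap, with PG_KO below, which held for 18.6% of all genes tested (9.97% above and 8.67% below), and the gap rested on values of 0.991 and 0.994 CPM. Without ctr replicate 1 the changes were -0.44 for Cdh2 and -0.52 for Cdh3. The squamous marker sums given for tissue Nectin4 were higher in PG_KO, where Cdh3 was lower, unlike in the organoids. The sums differ in makeup, however, so they do not compare the same markers. Sprr1a, nearly all of the organoid sum, was at 36.1 CPM in PG_KO and 38.1 in ctr (log2 change -0.06 ± 0.57). The tissue changes were above 0 for Krt14 (4.02 ± 0.56), Krt6a (3.05 ± 0.89) and Krt13 (2.40 ± 0.59), and below 0 for Krt5 (-0.84 ± 0.58). None of these was called, and the part of squamous cells was not tested.

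**Figure D4:**
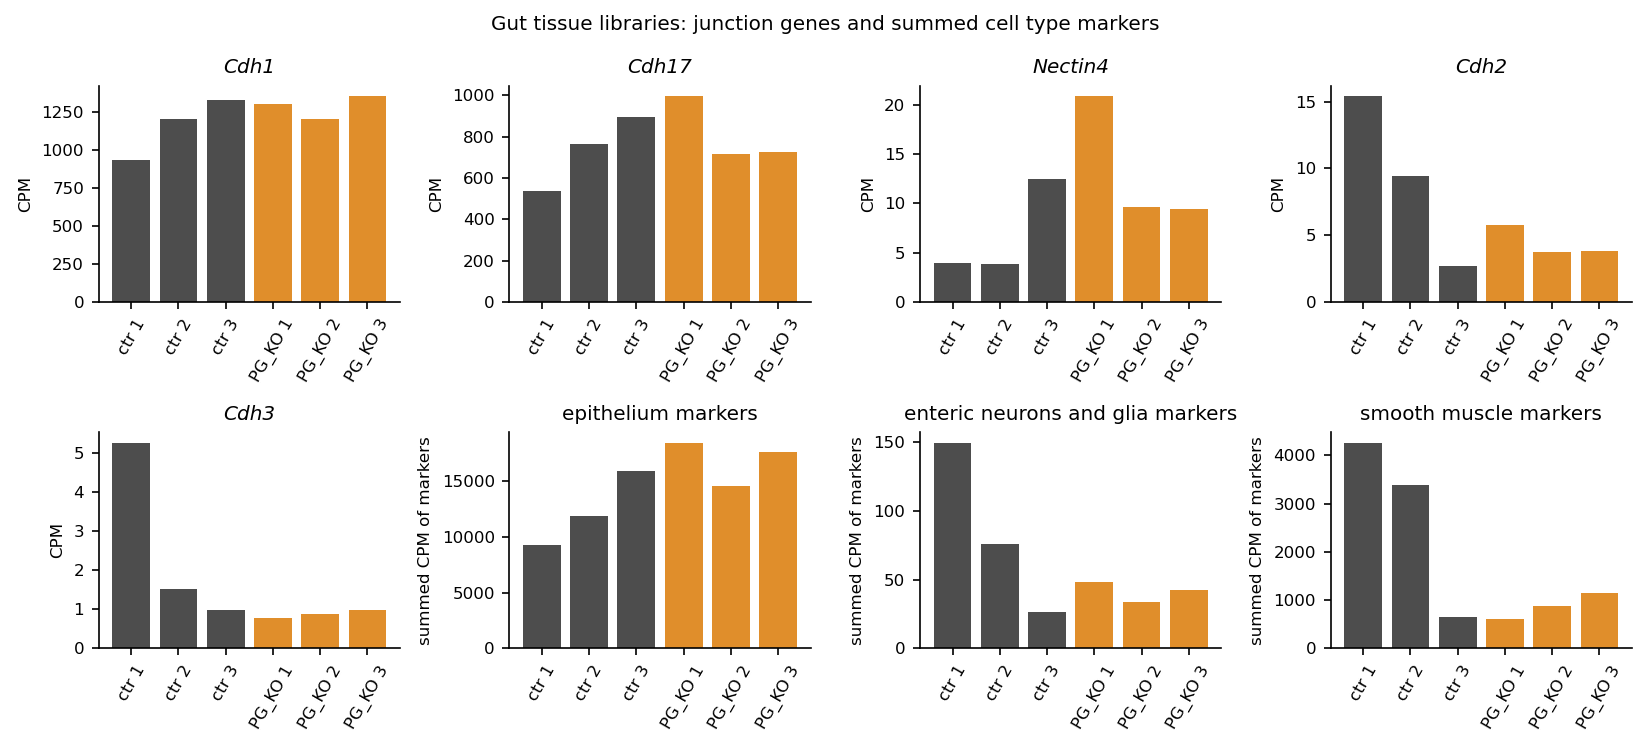
CPM of 5 junction genes and summed CPM of 3 marker lists (vertical axes start at 0) in each of the 6 tissue libraries, ctr in grey and PG_KO in orange. Cdh2 follows the neuron and glia sum from library to library, with its highest bar in ctr replicate 1, and Cdh1 and Cdh17 are lowest there.

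Whether the difference between low-Jup and other libraries was the same in tissue and organoids was tested as an interaction, PG_KO minus ctr less Tamoxifen minus DMSO. It was called for 5 of the 10 genes, 2 higher and 3 lower, where 36.4% of the 19141 genes tested were called, 15.7% higher and 20.7% lower, and the median over all of them was -0.14 on the log2 scale. Cdh17 (-4.45 ± 0.34, edgeR adjusted p = 4.59e-06), Nectin3 (-4.43 ± 0.45, edgeR adjusted p = 3.06e-05) and Nectin1 (-1.63 ± 0.36, edgeR adjusted p = 0.00532) were lower in this contrast. Nectin4 (4.73 ± 0.66, edgeR adjusted p = 2.94e-04) and Vcl (0.60 ± 0.18, edgeR adjusted p = 0.0216) were higher. The other 5 had changes from -0.34 for Cdh1 to 1.83 for Cdh2 and did not pass. Cdh2 passed without Tamoxifen replicate 3 (3.32, edgeR adjusted p = 0.0481), Cdh3 without ctr replicate 1 (2.28, edgeR adjusted p = 2.16e-04), and Nectin2 (0.70, edgeR adjusted p = 0.00927) and Afdn (0.67, edgeR adjusted p = 0.00796) without ctr replicate 3.

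Of the other cadherins, 4 of 18 were expressed enough to be tested in the organoids, and 3 fell in Tamoxifen against DMSO and 0 rose, where 32.4% of all genes tested were called lower. Of these, Cdh6 and Cdh11 passed the low-count filter through the T75 libraries, where they were higher, so the count is no support of a shared direction. Cdh13 (T-cadherin, held to the membrane by a lipid anchor) was at 0.522 ± 0.0784 CPM (SD, n = 3) in Tamoxifen, 338 ± 9.70 in DMSO and 263 ± 65.1 in nativ, a log2 change of -9.40 ± 0.21 against DMSO (edgeR adjusted p = 1.32e-10). Cdh6 (kidney cadherin) had 0 reads in all 3 Tamoxifen libraries, against 44.6 ± 5.84 CPM in DMSO and 35.4 ± 12.5 in nativ. With 3 reads over the group as the floor, Cdh6 was at least 1319-fold lower than in DMSO and at least 1048-fold lower than in nativ. Cdh11, a mesenchymal cadherin, fell by 1.28 (SE 0.36, edgeR adjusted p = 0.00923) from 0.679 to 0.302 CPM, and Cdh24 was at 4.81 and 5.35 CPM (-0.22 ± 0.17). In the tissue, 9 of these cadherins were tested and 0 were called. All 9 changes were below 0 with a median of -1.10. Cdh22 passed the low-count filter through the ctr libraries, where it was higher, so this count is no support of a shared direction either. Cdh22 was at 0.680 CPM in ctr and 0.214 in PG_KO, and Cdh11 was at 28 ± 17 CPM in ctr and 12 ± 2.57 in PG_KO. All 6 markers each of smooth muscle, fibroblasts, endothelium, neurons with glia, and leukocytes were likewise below 0, with medians from -1.67 to -0.82, and their part was not tested.

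Nectin-like genes and the immune receptors of nectins gave 4 tested genes of 10 in the organoids, of which 3 fell against DMSO and 0 rose, beside 66.3% of all genes tested called and 32.4% called lower. Cadm4 fell by 2.13 (SE 0.13, edgeR adjusted p = 1.27e-07) and Cadm1, an adhesion molecule of the nectin-like family, by 1.28 (SE 0.14, edgeR adjusted p = 1.21e-05). Pvr, the poliovirus receptor homologue, was at 50.7 CPM in Tamoxifen and 50.3 in DMSO (log2 change -0.06 ± 0.09, edgeR adjusted p = 0.579), and it fell by 0.28 against nativ (SE 0.09, edgeR adjusted p = 0.0127). Reads listed under Tigit, an inhibitory receptor of T and natural killer cells that binds Pvr and nectins, fell by 9.52 (SE 0.39, edgeR adjusted p = 6.23e-09). That row had 23 reads over Tamoxifen and passed the filter through the T75 libraries, and its gene overlaps Zbtb20 on the opposite strand, so its reads cannot be assigned to one gene with certainty. In the tissue, 7 were tested and 0 called, 6 with a change below 0, among them Tigit (-1.59 ± 0.43, edgeR adjusted p = 0.33) and Pvrig (-1.30 ± 0.41, edgeR adjusted p = 0.33). Pvrig passed the low-count filter through the ctr libraries, where it was higher, so the count below 0 is no support of a shared direction. Leukocyte marker sums were 1202, 725 and 396 CPM in ctr and 632, 477 and 207 in PG_KO, and their part was not tested.

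Of 29 catenins and other actin linkers 27 were tested in the organoids, and 10 rose and 10 fell against DMSO, with the median near 0 (-2.17e-06). Those shares are near the 33.9% higher and 32.4% lower of all genes tested. Jup was among those that fell, with beta-catenin (Ctnnb1) falling by 1.0 (SE 0.15, edgeR adjusted p = 1.79e-04) and alpha-catenin (Ctnna1) at -0.20 ± 0.14 (edgeR adjusted p = 0.224). Ssx2ip, which binds afadin and alpha-actinin, rose from 18.3 ± 1.38 to 71.1 ± 2.28 CPM (log2 change 1.89 ± 0.10, edgeR adjusted p = 2.77e-08). Myh10, a non-muscle myosin heavy chain, fell by 2.67 (SE 0.16, edgeR adjusted p = 1.05e-07), and Kifc3, a microtubule motor of the adherens junction, by 2.23 (SE 0.15, edgeR adjusted p = 2.36e-07). Counts against nativ were also 10 higher and 10 lower. In the tissue, 0 of 28 passed, with Kifc3 at 33.9 ± 7.87 CPM in ctr and 22.2 ± 2.98 in PG_KO. Ctnnb1 and Ctnna1 were named for their role as catenins after their values were seen.

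Few known repressors of Cdh1 were expressed in the organoids. Only 3 of 10 were tested, and Tcf4 fell by 0.86 against DMSO (SE 0.20, edgeR adjusted p = 0.00332), while Snai3 was at 4.31 and 3.55 CPM and Tcf3 at 83.0 and 80.8. Snai1 had 5 reads over the Tamoxifen libraries, 7 over DMSO and 3 over nativ. All 10 were tested in the tissue and 0 called, with Snai1 at 8.98 ± 6.96 CPM in ctr and 2.27 ± 1.23 in PG_KO (log2 change -1.95 ± 0.66, edgeR adjusted p = 0.33). Among 12 epithelial transcription factors known to act on Cdh1 or Cdh17, 7 rose and 4 fell against DMSO, with a median of 1.35, beside 33.9% higher and 32.4% lower of all genes tested (median 0.02). Cdx1 and Gata4 passed the filter through the Tamoxifen libraries, where they were high. Cdx2, the intestinal homeobox factor that acts on Cdh17, was at 329 ± 5.0 CPM in Tamoxifen, 16.3 ± 1.31 in DMSO and 16.6 ± 1.09 in nativ (log2 change 4.27 ± 0.12 against DMSO, edgeR adjusted p = 6.07e-10). Its tissue levels, 59.6 ± 28.8 CPM in ctr and 95.5 ± 16.1 in PG_KO, lay between. Cdx1 had another order, at 256 ± 103 CPM in ctr and 295 ± 123 in PG_KO, above its 103 ± 5.45 in Tamoxifen. The part of these factors in the levels of Cdh17 was not tested. Gata4 was at 121 ± 3.65 CPM in Tamoxifen with 5.33 reads over DMSO, and Foxa2 fell by 4.48 (SE 0.13, edgeR adjusted p = 7.61e-10). In the tissue Klf4 was at 471 ± 194 CPM in ctr and 291 ± 31 in PG_KO. Gata4 was at 1.13 ± 0.331 CPM in ctr and 0.147 ± 0.0694 in PG_KO, with 12 reads over PG_KO (log2 change -2.90 ± 0.52, edgeR adjusted p = 0.33). Its tissue groups did not overlap, which held for 18.6% of all genes tested (8.67% with PG_KO below). It passed the tissue filter through ctr, where it was higher. Neither its tissue change, below 0, nor its organoid change, above 0, is thus independent support of a difference, and 0 of 12 were called.

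Genes of cadherin turnover moved by small steps. Of 7, 3 rose and 2 fell against DMSO, with a median of 0.15, and 66.3% of all genes tested were called. Cbll1 (Hakai, a ubiquitin ligase of E-cadherin) rose by 0.54 (SE 0.10, edgeR adjusted p = 6.96e-04) and Numb, an endocytic adaptor, by 0.55 (SE 0.10, edgeR adjusted p = 8.91e-04). The kinase Src fell by 0.43 (SE 0.09, edgeR adjusted p = 0.00138). None of the 7 was called in the tissue, where the smallest p was that of Adam15, at 72.6 ± 18 CPM in ctr and 52.7 ± 5.82 in PG_KO (log2 change -0.44 ± 0.19, edgeR adjusted p = 0.333). Across the 6 lists 0 genes were called in DMSO against nativ.

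**Figure D5:**
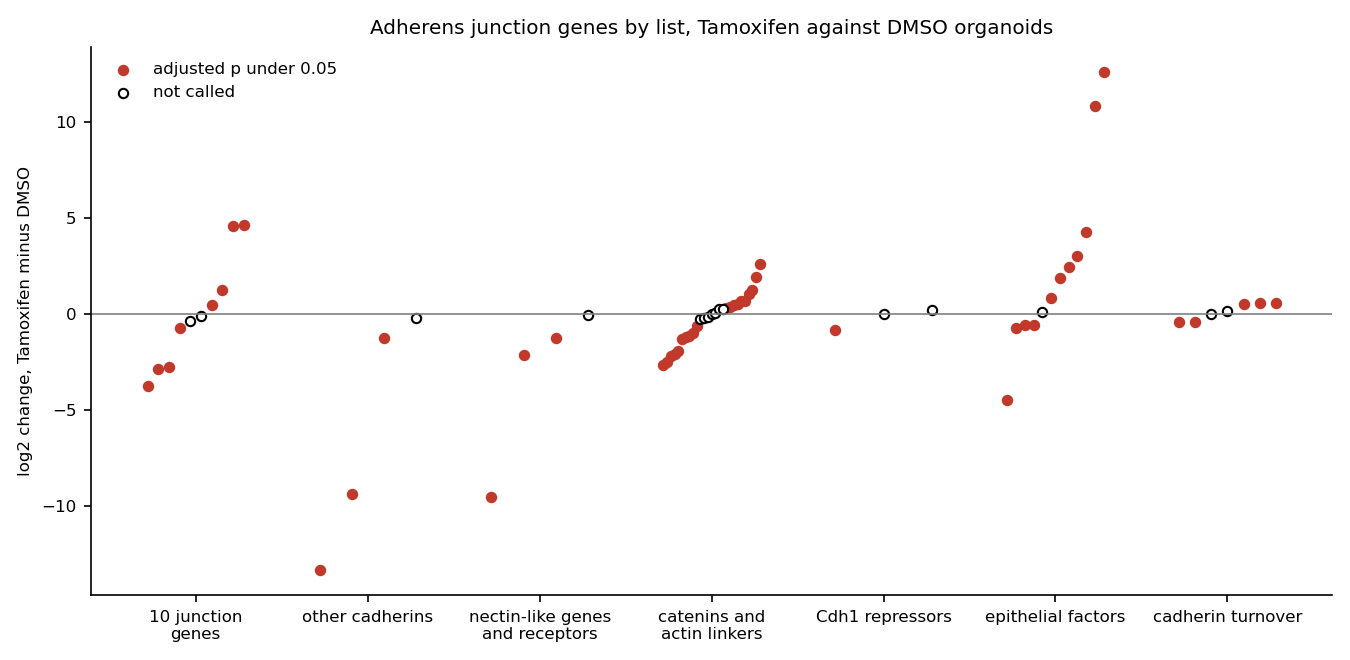
Log2 change of Tamoxifen minus DMSO organoids (vertical axis) for the 10 junction genes and the tested genes of 6 related lists, 1 point a gene, red where the adjusted p was under 0.05. The other cadherins and nectin-like genes lie at or below 0, down to Cdh6, which had 0 reads in Tamoxifen so that its fitted value is no bound, and the catenins and actin linkers lie on both sides.

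Across the 15 libraries, levels of Afdn, Vcl, Nectin2 and Cdh1 stayed within 0.917 to 1.37 log2 units from lowest to highest library, while Cdh17, Nectin3 and Cdh2 spanned 5.68, 5.38 and 7.22. Cdh17 and Nectin3 held the same order of group means, Tamoxifen, PG_KO, ctr, DMSO and nativ. Neighbours in that order did not overlap from Tamoxifen to PG_KO or from ctr to DMSO, while the tissue groups overlapped each other, as did DMSO and nativ. By root mean square difference of log2 CPM, centred per gene over the 15 libraries, the nearest other junction gene to each of Cdh17 and Nectin3 was the other, at 0.413 log2 units. Afdn and Vcl were each other's nearest at 0.26, and Cdh3 and Nectin4 at 1.23. Among protein-coding genes averaging 5 CPM or more, the nearest to Cdh17 were Tmem82 (0.341), Maoa (0.401) and Nectin3 (0.413). Those nearest to Cdh1 were Naa35 (0.0996), Ap1b1 and Ascc2 (0.11 each), to Cdh3 Srgap3 (0.27), Bmp6 (0.287) and Dock4 (0.413), and to Cdh2 Axl (0.505), Lix1l (0.513) and Cd59a (0.518). These distances share the libraries and their depth and describe likeness of pattern alone.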

How the data were processed

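Bulk polyA RNA of 15 mouse libraries was analysed, 3 in each of 5 groups taken from the sample descriptions. The submitters' processing notes name cutadapt 2.5, STAR 2.7.2b, featureCounts 1.6.4 and GRCm38.p6, and the labels give an RNA integrity number of at least 7.7. The authors deposited unscaled reads per gene, of the kind called expected counts, since 10.4% to 13.7% of a library's values are not whole. Counts were rounded and tested with edgeR 4.0.16 (R 4.3.3): TMM factors, filterByExpr by group, robust quasi-likelihood F tests, Benjamini-Hochberg adjustment over all genes tested, calls under 0.05. Standard errors were derived from the F statistic and the fitted log2 change. The 9 organoid libraries shared 1 fit, the 6 tissue libraries another, and the interaction used 12 libraries. CPM used library totals, and RPKM the combined exon length in the same tables. Library depth is given with the results. Named genes were the 10 members, Jup, and of each list the 4 with the smallest p in Tamoxifen against DMSO and the 2 in PG_KO against ctr, with nearest genes by centred log2 CPM. One gene that this rule names is not reported here. The members and lists were chosen with earlier results of these data known. Ctnnb1, Ctnna1 and Ap3m1 fall outside that rule and were chosen with their values seen. The code was tested on simulated data. Alternatives were DESeq2 1.42.0, limma-voom 3.58.1, RLE factors, library totals, other filters, a replicate block and leaving out libraries. Figures used matplotlib 3.10.9.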

Additional observations from a re-analysis of the deposited data

Results flagged for a closer look

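The change between low-Jup and other libraries differed between tissue and organoids for 5 of the 10 junction genes, by the interaction term of edgeR's quasi-likelihood fit over 12 libraries. Of the 19141 genes tested, 36.4% were called in the same contrast, so the count itself is near the background. On the log2 scale the tissue change minus the organoid change was -4.45 for Cdh17, -4.43 for Nectin3, -1.63 for Nectin1, 4.73 for Nectin4 and 0.60 for Vcl. Each of these 5 passed an adjusted p of 0.05 in all 19 alternatives. Tissue and organoids also differ in cell makeup, and the organoid change includes the differences in code (T41 and T75), Cre and agent. In the tissue, the titles name DSS colitis on the libraries described as PG_KO and the inducible Cre on those described as ctr. These causes cannot be told apart.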

How the results depend on the processing

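The number of junction genes called stayed at 7 to 9 for Tamoxifen against DMSO, 7 to 9 against nativ, 0 for DMSO against nativ, 0 for PG_KO against ctr and 5 to 7 for the interaction over all alternatives. Calls over all genes ranged from 9753 to 11575 for Tamoxifen against DMSO, 9870 to 11589 against nativ and 5519 to 7845 for the interaction. Of the fitted changes recomputed, 716 kept direction and side of the threshold, 6 passed it newly, 3 lost it (Cdh1 and Vcl, given with the results) and 11 reversed, all of them uncalled. Reversed in DMSO against nativ were Nectin2 (-1.93e-04 with 1 CPM in 3 libraries, -0.030 and -0.0072 without DMSO replicates 2 and 3, -0.020 without nativ replicate 1) and Nectin3 (-0.20 without DMSO replicate 1). In the tissue they were Cdh17 (-0.036 without replicate 1 of either group), Afdn (-0.10 without ctr replicate 1 and -0.0047 without PG_KO replicate 1), Vcl (0.014 without ctr replicate 1) and Nectin1 (0.040 without ctr replicate 3). Leaving out libraries, these changes ranged from -0.030 to 0.062 for Nectin2 and from -0.20 to 0.63 for Nectin3 in organoids. In the tissue they ranged from -0.036 to 0.39 for Cdh17, -0.55 to 0.040 for Nectin1, -0.10 to 0.24 for Afdn and -0.16 to 0.014 for Vcl. The cause was not tested. Library totals in place of TMM moved the median of all genes against nativ by 0.12 on the log2 scale. Requiring 1 CPM in 3 libraries left Cdh2 untested in organoids and 7 genes called. With TMM-scaled libraries 5 group means moved by more than their SD: Cdh1 in PG_KO (1201 CPM), Nectin2 in DMSO (272) and nativ (268), Afdn in PG_KO (166) and Vcl in DMSO (230). Same-numbered libraries share only a number, with correlations of deviations from -0.18 to 0.29, and a replicate block left 8, 8, 0, 0 and 5 genes called. Over all genes, calls in the tissue ranged from 0 to 1478 (without ctr replicate 3) and in DMSO against nativ from 0 to 157 (DESeq2). At this depth 3 reads are about 0.1 CPM, which limits Cdh2 in Tamoxifen organoids.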

Other observations

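Reads listed under Tigit were abundant in the T75 organoids, at 235, 175 and 147 CPM in DMSO and 149, 80.0 and 147 in nativ, against 0.468, 0.0976 and 0.215 in Tamoxifen and at most 2.29 in any tissue library. The T75 libraries had 0 reads of Ptprc, Nkg7, Cd226 and Cd96, at most 1 of Cd8a and at most 3 of Cd3e, while every tissue library had reads of all 6. The annotated Tigit gene overlaps Zbtb20 on the opposite strand by 8256 bases, and Zbtb20 had 555 to 1071 reads in the T75 libraries and at most 232 in the others. Without the strand setting, these reads cannot be assigned to one gene with certainty. These genes were looked at after the values of Tigit were seen.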
